A study of Mus musculus with 10 samples.

Results

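Globin and erythroid genes were followed in RNA from mouse embryonic cerebellum. These genes are best known from red blood cells, which freshly dissected tissue also holds. The set was chosen by gene symbol in a table of 22552 genes and held 8 genes. These were the embryonic globins Hba-x, Hbb-y and Hbb-bh1, the adult-type globins Hba-a1, Hba-a2 and Beta-s, and the erythroid genes Alas2 and Slc4a1. All 8 symbols were found.

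The samples were cerebella of E13.5 embryos on a mixed background of the strains C57BL/6 and 129, giving 4 RNA-seq libraries with Ezh2 deleted and 4 that were wild type. In the deletion embryos a floxed Ezh2 allele was cut by Cre recombinase expressed from Pax7, a gene of neural and muscle progenitors, and a Rosa-YFP reporter allele was bred in to guide dissection. Ezh2 encodes the enzyme of the Polycomb group that methylates histone H3 at lysine 27, a mark of silenced genes. The labels do not say whether blood cells lost the allele, whether the wild type embryos carried Cre or the reporter, or whether libraries came from separate embryos. The p-values therefore reflect how these libraries varied, in part perhaps for technical reasons.

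Haemoglobin is built from alpha-type and beta-type globin chains, each holding a haem group. In the mouse embryo the first red cells form in the yolk sac and make the embryonic chains, the alpha-type Hba-x (zeta) and the beta-type Hbb-y (epsilon-y) and Hbb-bh1. Around mid-gestation red cells made in the fetal liver, which carry the adult-type chains, enter the circulation and come to outnumber them. Which of these cells the adult-type RNA measured here came from was not tested, so its share does not count either kind. Alas2 makes the erythroid form of the first enzyme of haem synthesis, and Slc4a1 encodes band 3, the anion exchanger of the red cell membrane.

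Labels and tissue were checked first. For Ezh2 itself, Ezh2 deletion 1 to 4 had 53.8, 48.7, 51.1 and 64.4 RPKM, against 73.6, 84.7, 78.2 and 78.2 RPKM in wild type 1 to 4, with no overlap. Ezh2 RNA was 54.5 ± 6.91 RPKM in Ezh2 deletion and 78.7 ± 4.54 RPKM in wild type (SD, n = 4 each; read number divided by gene length and by library size), a log2 difference of -0.53 (SE 0.084, adjusted p = 0.0074 in limma). In Ezh2 deletion 4 alone against wild type it was -0.29 (adjusted p = 0.146 in limma). All 15 listed markers of neurons and embryonic cerebellum were above the level filter, led by Tubb3, a neuronal tubulin, at 1423 ± 158 RPKM in Ezh2 deletion and 1381 ± 51.2 RPKM in wild type (SD, n = 4 each). Total read numbers are unknown. The size of single-read steps in genes of low level gave relative depths between 1.25 and 2.11 in the deletion libraries and between 1 and 1.35 in the wild type libraries. The Y-linked gene Ddx3y was at 7.92 RPKM in Ezh2 deletion 4, no higher than 0.0219 RPKM in Ezh2 deletion 1 to 3, and 8.31 to 9.43 RPKM in wild type, so that sex, which the labels do not give, differed between most libraries of the genotypes.

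Promoter windows of 4 globin genes are shown because the embryonic and adult-type genes lie in the same clusters, alpha-type on chromosome 11 and beta-type on chromosome 7, and yet differed in their values. They are RefSeq windows of assembly GRCm38.p6, 250 bases before to 50 after each gene's start, and 6 of the 8 genes had one. Capitals mark 4 motifs searched on both strands. These were GATAA, the core bound by GATA factors, CACCC, the core bound by Klf1 and its relatives, CCAAT and TATAA. Beta-s is listed in RefSeq as Hbb-bs. The windows lie at chr7:103853158-103853457 on the minus strand (Hbb-y), chr7:103827879-103828178 on the minus strand (Beta-s), chr11:32276350-32276649 on the plus strand (Hba-x) and chr11:32283422-32283721 on the plus strand (Hba-a1).
Hbb-y: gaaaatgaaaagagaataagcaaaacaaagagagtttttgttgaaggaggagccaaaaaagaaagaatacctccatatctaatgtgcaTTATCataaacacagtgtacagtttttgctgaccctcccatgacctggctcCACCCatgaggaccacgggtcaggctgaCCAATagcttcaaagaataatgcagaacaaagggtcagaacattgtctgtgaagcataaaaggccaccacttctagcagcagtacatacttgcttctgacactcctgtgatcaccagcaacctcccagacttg
Beta-s: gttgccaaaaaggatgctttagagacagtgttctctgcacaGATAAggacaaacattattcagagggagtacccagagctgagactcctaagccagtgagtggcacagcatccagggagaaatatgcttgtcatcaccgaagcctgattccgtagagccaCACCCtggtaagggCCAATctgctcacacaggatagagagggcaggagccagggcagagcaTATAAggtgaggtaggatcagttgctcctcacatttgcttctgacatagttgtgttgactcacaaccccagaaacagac
Hba-x: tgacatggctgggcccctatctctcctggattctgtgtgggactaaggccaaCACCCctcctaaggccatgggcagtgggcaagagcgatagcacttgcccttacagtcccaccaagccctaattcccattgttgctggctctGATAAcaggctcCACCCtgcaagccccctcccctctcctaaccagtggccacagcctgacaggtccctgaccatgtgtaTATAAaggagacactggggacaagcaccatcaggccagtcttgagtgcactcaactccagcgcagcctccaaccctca
Hba-a1: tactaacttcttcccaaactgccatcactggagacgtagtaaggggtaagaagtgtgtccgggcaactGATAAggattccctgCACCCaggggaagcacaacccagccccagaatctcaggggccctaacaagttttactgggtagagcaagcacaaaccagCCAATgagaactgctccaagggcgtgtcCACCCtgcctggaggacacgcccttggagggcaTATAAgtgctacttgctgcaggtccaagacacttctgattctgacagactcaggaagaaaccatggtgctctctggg

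All 4 windows held GATAA and CACCC on at least 1 strand. CCAAT was found in Hbb-y, Beta-s and Hba-a1, and TATAA in Beta-s, Hba-x and Hba-a1. Of all 32851 RefSeq windows of the same length, 25.4% held GATAA, 57.5% CACCC, 37.4% CCAAT and 24.9% TATAA. A match is a string of letters and does not show binding. The windows of Hba-a1 and Hba-a2 shared an identical run of 297 of 300 bases, whereas the longest run shared by Hba-a1 and Hba-x was 10 bases and that shared by Beta-s and Hbb-y was 12 bases. Beta-s and Hbb-bt, another adult beta-type gene, shared no run longer than 14 bases, so a short run does not set embryonic from adult-type genes.

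With all libraries in the fit, none of the 3 embryonic globins passed the test between genotypes (0 also at an unadjusted p under 0.05 in limma). Of these, 2, Hbb-y and Hba-x, had the highest mean levels of the set. Hbb-y, the main embryonic beta-type chain, stood at 533, 326, 239 and 532 RPKM in Ezh2 deletion 1 to 4, against 282, 335, 285 and 325 RPKM in wild type 1 to 4. Ezh2 deletion 1 and 4 lay above all wild type libraries, Ezh2 deletion 3 lay below all of them, and Ezh2 deletion 2 fell among them. The means were 408 ± 149 RPKM in Ezh2 deletion and 307 ± 27 RPKM in wild type (SD, n = 4 each), a log2 difference of 0.33 (SE 0.268, adjusted p = 0.57 in limma). In Ezh2 deletion 4 alone against wild type, the log2 difference was 0.80 for Hbb-y, 0.90 for Hba-x and 0.94 for Hbb-bh1. Those values rest on 1 deletion library.

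Hba-x, the embryonic alpha-type chain, was likewise highest in Ezh2 deletion 1 and 4. It was at 83.3, 51.9, 47.6 and 96.2 RPKM in Ezh2 deletion 1 to 4 and at 41.2, 59.5, 55.9 and 50.9 RPKM in wild type 1 to 4. The genotypes overlapped, and the log2 difference was 0.37 (SE 0.252, adjusted p = 0.489 in limma).

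Hbb-bh1, a second embryonic beta-type chain, was much less abundant. It was at 9.29, 7.02, 3.91 and 13.3 RPKM in Ezh2 deletion 1 to 4 and at 6.37, 10.1, 6.27 and 5.25 RPKM in wild type 1 to 4, again with overlap and with the highest value in Ezh2 deletion 4. Its log2 difference was 0.17 (SE 0.375, adjusted p = 0.861 in limma), and it turned to -0.090 without Ezh2 deletion 4. Hbb-y exceeded Hbb-bh1 by 40.1-fold to 61.2-fold in the deletion libraries and by 33.3-fold to 61.8-fold in the wild type libraries.

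The main adult-type genes, Beta-s and Hba-a1, lay below wild type in every deletion library. Beta-s, the main adult beta-type chain in these values, fell in Ezh2 deletion and was the only gene of the set past the threshold. It was at 22.3, 25.5, 16.7 and 28.0 RPKM in Ezh2 deletion 1 to 4, against 50.8, 42.7, 34.8 and 37.2 RPKM in wild type 1 to 4. Every deletion library lay below every wild type library. The means were 23.1 ± 4.90 RPKM in Ezh2 deletion and 41.4 ± 7.10 RPKM in wild type (SD, n = 4 each), 55.9% of the wild type level. The log2 difference was -0.84 (SE 0.173, adjusted p = 0.0389 in limma), and the exact two-sided permutation p was 0.0286, the smallest that 4 libraries against 4 can give.

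The call on Beta-s was close to the threshold. The adjusted p lay between 0.0404 and 0.105 when 1 library was left out, and exceeded 0.05 without Ezh2 deletion 1 (0.095) or 2 (0.0642) and without wild type 1 (0.0777), 2 (0.105), 3 (0.0575) or 4 (0.0862). The log2 difference stayed between -0.94 and -0.70 in those fits. In Ezh2 deletion 4 against wild type, the comparison within libraries that carry Y-linked RNA, it was -0.54 (SE 0.203, adjusted p = 0.229 in limma). That fit has 1 deletion library and assumes that it varies like wild type.

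Hba-a1, an adult alpha-type gene, had a larger difference and a wider spread. It was at 7.75, 11.2, 16.7 and 24.0 RPKM in Ezh2 deletion 1 to 4, against 33.6, 34.1, 24.6 and 37.0 RPKM in wild type 1 to 4. The groups did not overlap, though Ezh2 deletion 4 came within 1 RPKM of wild type 3. The log2 difference of -1.21 (SE 0.35) did not pass (adjusted p = 0.138 in limma).

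Hba-a2, the near-identical neighbour of Hba-a1, was listed near 0 in most libraries. It was at 7.67, 0.0345, 0.144 and 0.0899 RPKM in Ezh2 deletion 1 to 4 and at 0.0224, 0.0286, 0.0206 and 0.0126 RPKM in wild type 1 to 4. In Ezh2 deletion 1 it made up 49.7% of the sum of both copies, and in the other libraries between 0.0341% and 0.854%. It reached the level filter through Ezh2 deletion 1 alone, and its log2 difference of 1.45 (SE 1.08) did not pass (adjusted p = 0.542 in limma). How reads that match both copies were assigned is not given in the sources used here. The sum of both was 15.4, 11.3, 16.9 and 24.1 RPKM in Ezh2 deletion 1 to 4, against 33.6, 34.2, 24.6 and 37.0 RPKM in wild type 1 to 4.

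**Figure D1:**
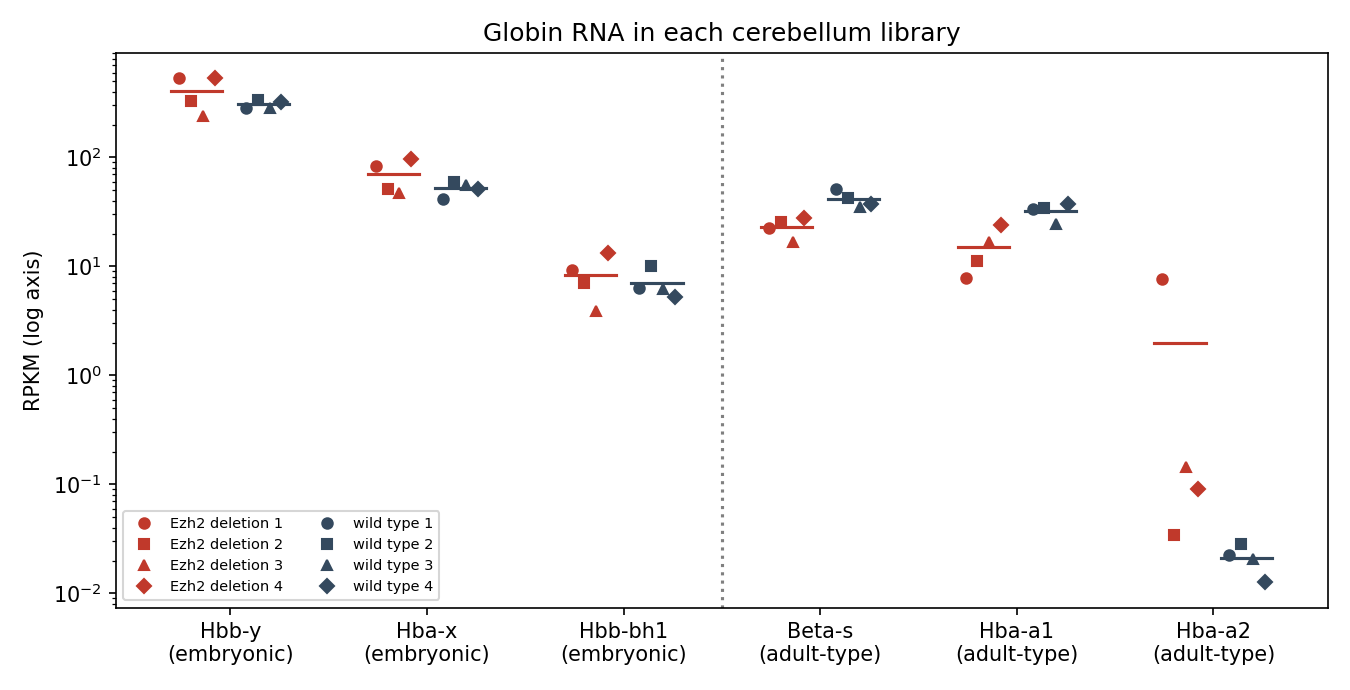
RNA level (RPKM, log axis) of the 6 globins in each library, with Ezh2 deletion in red and wild type in dark blue, 1 symbol per replicate number and a bar at the mean of 4 libraries. Beta-s and Hba-a1 lie lower in every deletion library than in every wild type library, while the embryonic globins overlap.

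Further adult beta-type genes were listed beside Beta-s, and reads could be split among these close relatives. Hbb-b2 was at 7.70, 9.94, 5.10 and 9.33 RPKM in Ezh2 deletion 1 to 4, against 16.8, 19.7, 11.4 and 14.3 RPKM in wild type 1 to 4, with no overlap. Beta-s exceeded it by 2.57-fold to 3.27-fold in Ezh2 deletion and by 2.17-fold to 3.07-fold in wild type. Its log2 difference was -0.95 (SE 0.235, adjusted p = 0.0777 in limma). Hbb-b1 was erratic, at 4.14e-04, 1.77e-04, 1.92 and 2.42 RPKM in Ezh2 deletion 1 to 4 and at 1.37, 2.51e-04, 4.36 and 1.35 RPKM in wild type 1 to 4. Mouse strains differ in the adult beta-type genes they carry, and the alleles of these embryos are not given.

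Near-identical copies were also summed before the fit over all genes, a choice made after seeing the values. Beta-s with Hbb-b1 and Hbb-b2 then had a log2 difference of -0.87 (SE 0.165, adjusted p = 0.0264 in limma), and Hba-a1 with Hba-a2 one of -0.96 (SE 0.23, adjusted p = 0.073 in limma). Summing the copies thus left the beta-type genes called and the alpha-type genes above the threshold.

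**Figure D2:**
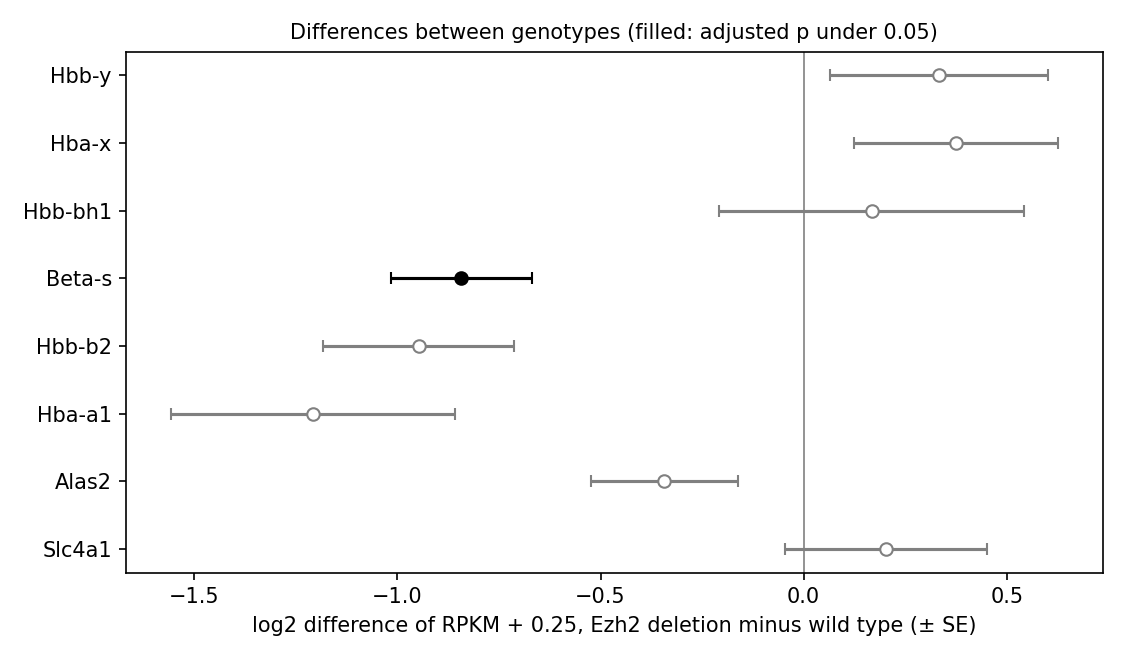
Log2 difference of RPKM + 0.25, Ezh2 deletion minus wild type, with its standard error, for 7 of the 8 genes and for Hbb-b2. Filled symbols passed an adjusted p of 0.05, which Beta-s alone did; Hba-a2, which rests on 1 library, is not drawn.

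Of the 8 genes, all of which were tested, 1 was lower and 0 were higher in Ezh2 deletion (limma, adjusted p under 0.05), and 2 had an unadjusted p under 0.05, Beta-s and Hba-a1. Of all 14279 genes tested, 3.45% were called, 2.71% as higher and 0.742% as lower, and 17.7% had an unadjusted p under 0.05. Hba-a2, which passed the level filter through a single deletion library, is left out of the rest of this paragraph only. It enters the globin sums and ratios given later, with 7.67 of the 37.7 RPKM of the adult-type sum in Ezh2 deletion 1. The genotypes did not overlap in 2 of the other 7 genes, Beta-s and Hba-a1, both with the deletion libraries below. Of all genes tested 12.4% did not overlap, 5.61% with the deletion libraries below and 6.79% with them above. The median log2 difference was 0.17 over the 7 genes and -0.01 over all genes tested.

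Embryonic and adult-type globins were then compared within each library, where both are measured in the same RNA. Summed RPKM of the 3 embryonic globins was 16.6, 10.5, 8.67 and 12.3 times that of the 3 adult-type globins in Ezh2 deletion 1 to 4, against 3.91, 5.26, 5.85 and 5.13 times in wild type 1 to 4. The lowest deletion library, Ezh2 deletion 3, lay above the highest wild type library, wild type 3. The log2 ratio averaged 3.54 ± 0.396 in Ezh2 deletion and 2.32 ± 0.248 in wild type (SD, n = 4 each). No test is attached to this ratio, since it is a score over chosen genes.

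Both chain types showed the separation. Hba-x over the sum of Hba-a1 and Hba-a2 was 5.40, 4.6, 2.82 and 4.00 in Ezh2 deletion 1 to 4 and 1.23, 1.74, 2.27 and 1.37 in wild type 1 to 4. Hbb-y and Hbb-bh1 over Beta-s was 24.3, 13.05, 14.6 and 19.4 in Ezh2 deletion 1 to 4 and 5.68, 8.08, 8.37 and 8.87 in wild type 1 to 4. In neither ratio did the genotypes overlap.

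The ratio also lay above wild type in the single deletion library with Y-linked RNA, Ezh2 deletion 4. Its embryonic sum was 642 RPKM, against 330 to 405 RPKM in wild type. Its adult-type sum was 52.1 RPKM, against 59.5 to 84.4 RPKM in wild type. With 1 such library, the part of sex in the ratio was not tested. The log2 ratio of Ezh2 deletion 4 exceeded the wild type mean by 1.31, and the difference over all libraries was 1.23. It ranged from 1.06 to 1.37 when 1 library was left out. A mean of log2 values in place of a ratio of sums, which gives the near-absent Hba-a2 the same weight as the other genes, gave 0.49, with overlap between the genotypes.

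**Figure D3:**
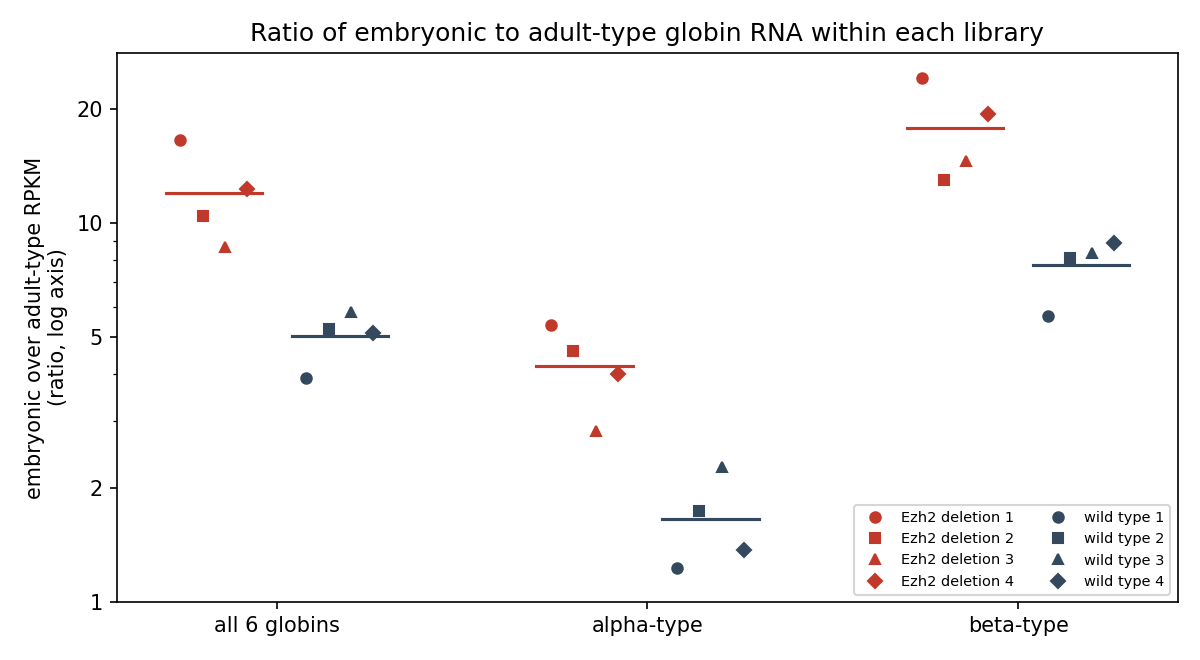
Ratio of embryonic to adult-type globin RPKM within each library (log axis), for all 6 globins, for alpha-type and for beta-type genes, with Ezh2 deletion in red, wild type in dark blue and a bar at the mean of 4 libraries. For all 6 globins the deletion libraries lie between 8.67 and 16.6 and the wild type libraries between 3.91 and 5.85.

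Adult-type globins made up 5.69%, 8.72%, 10.3% and 7.51% of the summed RPKM of the 6 globins in Ezh2 deletion 1 to 4, against 20.4%, 16.0%, 14.6% and 16.3% in wild type 1 to 4. Hbb-y alone made up between 73.8% and 80.3% in Ezh2 deletion and between 68.1% and 71.3% in wild type. The order of mean levels in wild type was Hbb-y, Hba-x, Beta-s, Hba-a1, Hbb-bh1, Alas2, Slc4a1 and Hba-a2. Among neighbours in that order, the ranges of Hba-x and Beta-s overlapped, as did those of Beta-s and Hba-a1. In Ezh2 deletion the ranges of Hba-x and Beta-s were apart, while those of Beta-s and Hba-a1, of Hba-a1 and Hbb-bh1, of Alas2 and Slc4a1, and of Slc4a1 and Hba-a2, overlapped.

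The amount of globin RNA as a whole varied more among deletion than among wild type libraries. The 6 globins summed to 663, 422, 324 and 694 RPKM in Ezh2 deletion 1 to 4 and to 414, 482, 407 and 455 RPKM in wild type 1 to 4. The highest deletion library exceeded the lowest by 2.14-fold, and the highest wild type library exceeded the lowest by 1.18-fold. In bulk tissue, fewer blood cells and less RNA per cell cannot be told apart. The adult-type sum was 37.7, 36.8, 33.6 and 52.1 RPKM in Ezh2 deletion 1 to 4, in the same order as the total, and 84.4, 76.9, 59.5 and 74.2 RPKM in wild type 1 to 4.

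The balance of alpha-type and beta-type chains overlapped between the genotypes. The log2 ratio of summed alpha-type to beta-type RPKM was -2.52, -2.51, -2.01 and -2.25 in Ezh2 deletion 1 to 4 and -2.18, -2.05, -2.02 and -2.06 in wild type 1 to 4. Within the embryonic genes it averaged -2.56 ± 0.165 in Ezh2 deletion and -2.61 ± 0.185 in wild type, and within the adult-type genes -0.48 ± 0.518 in Ezh2 deletion and -0.36 ± 0.26 in wild type (SD, n = 4 each).

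The erythroid genes that are no globins were at low levels. Alas2 was at 2.11, 1.85, 1.68 and 3.36 RPKM in Ezh2 deletion 1 to 4, against 2.73, 3.08, 2.55 and 2.97 RPKM in wild type 1 to 4. Ezh2 deletion 1 to 3 lay below all wild type libraries and Ezh2 deletion 4 above them. The log2 difference was -0.34 (SE 0.181, adjusted p = 0.359 in limma). Without Ezh2 deletion 4 it was -0.53 (SE 0.114) and passed (adjusted p = 0.0429 in limma). That fit sets deletion libraries nearly free of Y-linked RNA against wild type libraries that carry it, and Alas2 lies on the X chromosome. Genotype and sex cannot be told apart there. In Ezh2 deletion 4 against wild type, both with Y-linked RNA, the log2 difference was 0.23.

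Slc4a1 was at 1.28, 0.92, 0.685 and 2.06 RPKM in Ezh2 deletion 1 to 4 and at 0.864, 0.851, 1.10 and 1.08 RPKM in wild type 1 to 4. Its deletion libraries stood in the same order as in Hba-x, with Ezh2 deletion 4 highest and Ezh2 deletion 3 lowest. The genotypes overlapped, and the log2 difference was 0.20 (SE 0.248, adjusted p = 0.718 in limma). Set against total globin, Alas2 had 0.318, 0.44, 0.517 and 0.484 RPKM per 100 RPKM of the 6 globins in Ezh2 deletion 1 to 4, against 0.659, 0.639, 0.627 and 0.652 in wild type 1 to 4, with no overlap, while Slc4a1 had between 0.193 and 0.297 in Ezh2 deletion and between 0.177 and 0.271 in wild type.

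Other genes of the red cell lineage were read from 4 lists, of haem synthesis, red cell membrane and skeleton, erythroid transcription factors, and erythroid receptors, enzymes and chaperones. Leaving out Slc4a1, they held 55 genes, of which 43 passed the level filter. In Ezh2 deletion 2 of these rose and 0 fell, and 11 had an unadjusted p under 0.05, against 3.45% called and 17.7% with such a p among all genes tested. Their median log2 difference was 0.05. Many of them are also used by neural cells, so that their level does not stand for blood alone.

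Of 11 genes of haem synthesis, all tested, 0 were called by limma (3 with an unadjusted p under 0.05). Of 18 genes of the membrane and skeleton list, which includes Slc4a1, 11 were tested and 0 called (2 with an unadjusted p under 0.05). Of 12 erythroid transcription factors 10 were tested and 1 was higher. Gata1, the master factor of red cell formation, lay between 0 and 0.119 RPKM in Ezh2 deletion and between 0 and 0.0802 RPKM in wild type. Klf1, a factor of adult globin transcription, was at 0.33 ± 0.0316 RPKM in Ezh2 deletion and 0.238 ± 0.0883 RPKM in wild type (SD, n = 4 each; adjusted p = 0.412 in limma). Gata1 was thus near 0 in libraries whose summed globin RPKM was at least 324.

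The called transcription factor was Tal1, which acts in blood formation and also in neurons of the midbrain and brainstem. It was at 9.76, 12.0, 8.48 and 8.90 RPKM in Ezh2 deletion 1 to 4, against 1.11, 4.14, 0.643 and 0.546 RPKM in wild type 1 to 4. Tal1 rose in Ezh2 deletion by 2.79 on the log2 scale (SE 0.533, adjusted p = 0.0408 in limma). The call was lost in most fits with 1 library left out. The adjusted p in limma was between 0.0915 and 0.116 when any library but wild type 2 was left out, and 3.64e-05 without wild type 2, the highest wild type library. In Ezh2 deletion 4 against wild type it was 0.309 (log2 difference 2.67). Bcl11a, a repressor of embryonic globin genes in red cells that neurons also express, was at 100.3 ± 8.47 RPKM in Ezh2 deletion and 115 ± 6.89 RPKM in wild type (SD, n = 4 each; adjusted p = 0.165 in limma).

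Of 15 matched receptors, enzymes and chaperones 12 were tested and 1 was higher. Tspan33, a tetraspanin of erythroid precursors, was at 2.53 ± 0.441 RPKM in Ezh2 deletion and 1.42 ± 0.228 RPKM in wild type (SD, n = 4 each), a log2 difference of 0.74 (SE 0.146, adjusted p = 0.0245 in limma). It was not called without Ezh2 deletion 3 (adjusted p = 0.064 in limma), wild type 3 (0.0601) or wild type 4 (0.0666), nor in Ezh2 deletion 4 against wild type (0.159). Tfrc, the transferrin receptor, was at 16.98 ± 2.17 RPKM in Ezh2 deletion and 17.1 ± 1.77 RPKM in wild type (SD, n = 4 each; adjusted p = 0.972 in limma). The other listed globins comprised 8 matched genes, of which 4 were tested and 0 called (2 with an unadjusted p under 0.05).

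**Figure D4:**
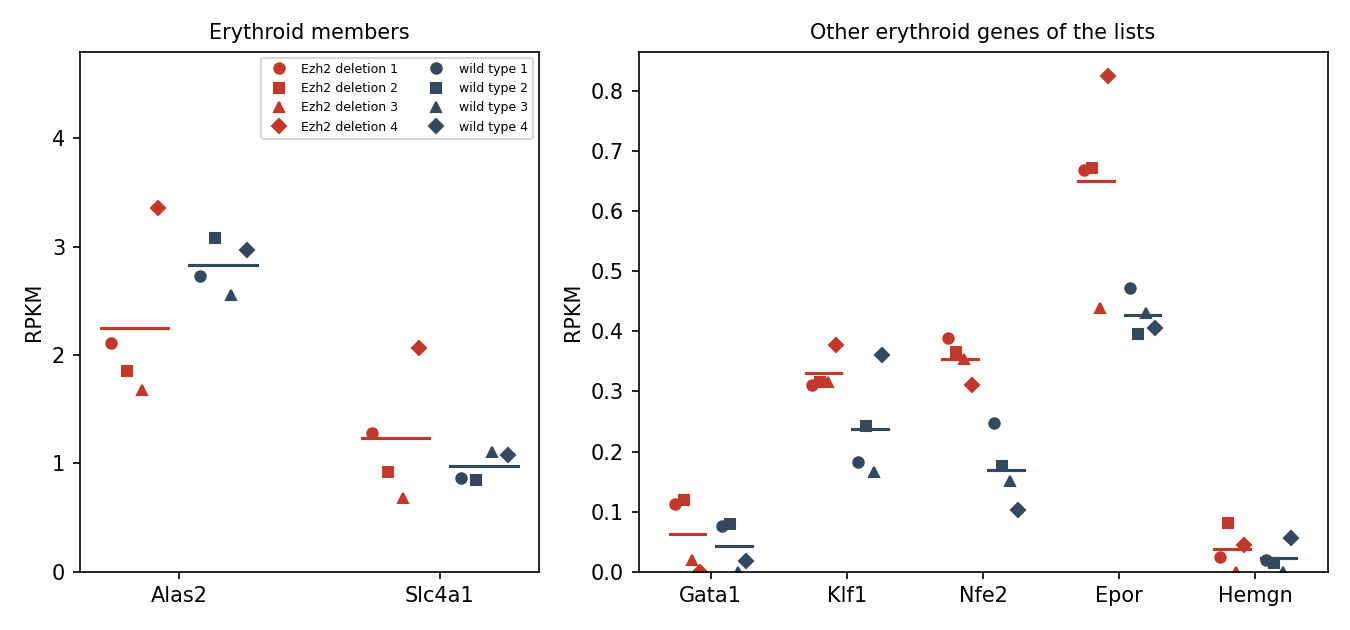
RNA level (RPKM, linear axes) of Alas2 and Slc4a1, left, and of 5 other erythroid genes, right, in each library, with Ezh2 deletion in red, wild type in dark blue and a bar at the mean of 4 libraries. Ezh2 deletion 4 is the highest library for Alas2 (3.36 RPKM) and Slc4a1 (2.06 RPKM), and Gata1 stays below 0.12 RPKM throughout. Nfe2 lies above wild type in every deletion library (means 0.354 RPKM in Ezh2 deletion and 0.169 RPKM in wild type) but was not called (adjusted p = 0.0902 in limma). Epor averages 0.65 RPKM in Ezh2 deletion and 0.426 RPKM in wild type, with overlap (adjusted p = 0.213 in limma). Klf1 and Hemgn overlap as well.

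Marker lists of other cells in the tissue were set beside these values. Of 12 endothelial markers, which report on blood vessels, 12 were tested and 0 called by limma (0 also without adjustment). Their summed level was 65.8 to 96.4 RPKM in Ezh2 deletion and 74.7 to 90.4 RPKM in wild type, and the most abundant, Cldn5, a tight junction protein, had a log2 difference of -0.24 (adjusted p = 0.307 in limma). Of 12 microglia and macrophage markers, led by C1qb, 11 were tested and 0 called (2 with an unadjusted p under 0.05 in limma), with sums of 30.2 to 49.9 RPKM in Ezh2 deletion and 27.3 to 37.1 RPKM in wild type. Of 10 megakaryocyte and platelet markers, led by Gp1bb, 5 were tested and 0 called (0 also without adjustment), with sums of 13.9 to 16.6 RPKM in Ezh2 deletion and 15.5 to 18.3 RPKM in wild type. Gp1bb, with a mean of 14.2 RPKM, was the only 1 of these markers to reach a mean of 1 RPKM. The platelet sums thus mainly follow that gene. Of 10 meningeal and pericyte markers, led by Rgs5, 8 were tested and 0 called (0 also without adjustment), with sums of 23.3 to 44.7 RPKM in Ezh2 deletion and 29.5 to 39.9 RPKM in wild type. In Ezh2 deletion 2 Col1a1 (3.57 RPKM), Col1a2 (5.36), Dcn (0.711) and Lum (1.00) were high. Wild type had no more than 0.608, 1.54, 0.476 and 0.120 RPKM of them. Rgs5, Pdgfrb, Kcnj8 and Abcc9 lay within their wild type ranges in that library. The part of all these cells in the globin values was not tested.

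Of 11 markers of fetal liver and plasma proteins 3 were tested and 0 called by limma (0 also without adjustment). Alb, albumin, was listed at 0 in all libraries but wild type 2, where it was at 0.0524 RPKM, and Afp, alpha-fetoprotein, at no more than 0.0407 RPKM in Ezh2 deletion and 0.0588 RPKM in wild type. Ttr, also a choroid plexus gene, was at 16.2, 152, 0.382 and 0.188 RPKM in Ezh2 deletion 1 to 4 and between 0.0725 and 4.995 RPKM in wild type. Of 8 choroid plexus markers 6 were tested and 0 called by limma (0 also without adjustment), with sums of 16.5 to 182 RPKM in Ezh2 deletion and 4.39 to 13.3 RPKM in wild type, which did not overlap. Beside Ttr the largest part of the sums was Otx2, a transcription factor also found in other brain regions. Otx2 was at 4.145, 14.7, 15.3 and 21.1 RPKM in Ezh2 deletion 1 to 4 and 7.55, 6.90, 3.86 and 3.51 RPKM in wild type 1 to 4. In Ezh2 deletion 2 Clic6 (4.99 RPKM), Kcne2 (4.78), Folr1 (2.90) and Aqp1 (2.75) were also high, against no more than 0.415 RPKM each in wild type. Kl, at 0.0623 RPKM there, lay within its wild type range. In Ezh2 deletion 3 and 4 Otx2 made up most of the sum, while Ttr there lay within its range in wild type, and neither gene was called. The part of such tissue in the globin values was not tested. Of the 15 neural markers Skor2, a corepressor of young Purkinje cells, was lower (log2 difference -0.93, adjusted p = 0.0087 in limma) and 0 were higher. An unadjusted p under 0.05 in limma was reached by 5 of the 15, Skor2 included, against 17.7% of all genes tested. In Ezh2 deletion 4 against wild type Skor2 was not called (log2 difference -1.07, adjusted p = 0.0742 in limma). The 4 Y-linked genes, led by Eif2s3y, were tested and 0 called by limma (4 with an unadjusted p under 0.05), with sums of 0 to 42.7 RPKM in Ezh2 deletion and 45.0 to 50.8 RPKM in wild type.

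The genes whose pattern over the 8 libraries was most like the mean log2 level of the set were ranked among 12578 other genes with a mean of at least 1 RPKM. That mean included Hba-a2, at 7.67 RPKM in Ezh2 deletion 1 and no more than 0.144 RPKM in the other libraries. Hba-a2 thus raised the mean in Ezh2 deletion 1, where it was highest (3.88). The ranking was not repeated without Hba-a2, so it does not stand for the other members. Among the 10 closest, by Pearson's r between 0.918 and 0.948 over 8 libraries, were Stip1, Pgls, Rnf40, Fars2, Ino80b, Stard3, 2410002O22Rik, 1700030J22Rik and Hnrnpc. None of these was on a list of red cell genes. They share the libraries with the set and were picked as the highest of many, so no p is given. Stip1, a co-chaperone, was highest in Ezh2 deletion 4 and 1, at 144 and 140 RPKM, with 114 and 117 RPKM in Ezh2 deletion 2 and 3 and between 123 and 133 RPKM in wild type.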

How the data were processed

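RNA-seq of polyadenylated RNA gave 4 Ezh2 deletion and 4 wild type libraries of cerebellum. The 1 H3K27me3 ChIP-seq sample of each genotype was not used here. The authors deposited 1 table of RPKM values, with 1 column per library. Build mm9 and the tools Bowtie, TopHat, SICER and Cuffdiff are named in the submitters' processing notes, without saying which served RNA-seq. The sources used here give neither annotation nor strand use nor the treatment of reads that match several genes, so values of near-identical globin copies are uncertain. RPKM are not counts, and no count model was used.

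Genes with a mean of at least 0.25 RPKM (14279) entered limma 3.58.1, run in R 4.3.3 on log2(RPKM + 0.25) (robust eBayes with a mean-variance trend, using statmod 1.5.0). Tests were two-sided, adjusted by Benjamini-Hochberg over all genes tested, at a threshold of 0.05. Log2 differences are on this scale, which understates changes of low genes. The fit was also run on simulated data in which each gene had the same spread in both genotypes. The outcome of that run is not reported here. Relative depth came from the most common ratio of values to wild type 1 in genes under 0.1 RPKM.

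Members, lists and tests were chosen with earlier results of these data known. Of 156 symbols, older names served for 6, and 5 stayed without a match. Named were the 8 members, Ezh2, genes among the 10 closest in pattern, called genes of each list, the most abundant gene of each marker list, and Gata1, Klf1, Tfrc and Bcl11a (Ahsp had no match). Hbb-b1, Hbb-b2, Alb, Afp, Otx2, Clic6, Kcne2, Folr1, Aqp1, Kl and Ddx3y were chosen after their values were seen. Alternatives covered the pseudocount, filter, scaling, variance model, weights, a replicate block, libraries left out, the makeup of the ratios and the threshold. Some genes that the rule names are not reported here. The summing of near-identical copies was added after seeing the data.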

Additional observations from a re-analysis of the deposited data

Results flagged for a closer look

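Hba-a2 in Ezh2 deletion 1 stood far from the other deletion libraries, at 7.67 RPKM against no more than 0.144 RPKM in Ezh2 deletion 2 to 4. The gap to the next library was 0.986 of the range of the group. In the same library Hba-a1 was the lowest of all libraries, at 7.75 RPKM. It was 1 of 26 groups of 4 libraries looked at, of which chance flags about 1 in 20.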

How the results depend on the processing

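The fall of Beta-s kept its direction in all 19 alternatives and passed the threshold in 10 of them. It did not pass with quantile normalization (-0.82, adjusted p = 0.0551) or plain eBayes (-0.84, adjusted p = 0.05004), which left 0 members lower, nor in Ezh2 deletion 4 against wild type (-0.54), where 0 members were lower and 1 was higher, Hbb-y (0.80, adjusted p = 0.0207). Hbb-bh1 turned to -0.0076 with array weights and to -0.090 without Ezh2 deletion 4, Slc4a1 to -0.038 without Ezh2 deletion 4, and Alas2 to 0.23 in Ezh2 deletion 4 against wild type. With 1 library left out, Beta-s ranged from -0.94 to -0.70, Alas2 from -0.53 to -0.23, Hbb-bh1 from -0.090 to 0.48, Slc4a1 from -0.038 to 0.40, members lower from 0 to 2, erythroid list genes higher from 0 to 2, all genes higher from 223 to 352 and all genes lower from 40 to 100, against 387 and 106 with all libraries. Genes lower numbered 55 after rescaling without erythroid genes (473 higher), 181 with array weights and 53 with the replicate block. In Ezh2 deletion 4 against wild type 195 genes and 0 erythroid list genes were higher. The cause was not tested. The replicate block changed no call on a member, and deviations of same-numbered libraries correlated with r between 0.00336 and 0.0867, with 2 of 8 libraries closest to their own number. The difference in the embryonic to adult-type log2 ratio was 0.49 with a mean of log2 values, that in the alpha to beta log2 ratio 0.046 over embryonic genes, and that in summed globins 254 RPKM in Ezh2 deletion 4 against wild type. At a threshold of 0.1, 4 erythroid list genes were higher, of which 3 were transcription factors, and among other globins 1 was higher and 1 lower. Total depth is unknown, which limits genes near 0 such as Gata1.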
